A study of Mus musculus with 18 samples.

Results

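The cells described here are the 511 splenic CD4 T cells, of 26652 annotated in all, that the authors placed in a cluster named NKT, part of their activated conventional T cell (activated Tconv) class. They were chosen by that annotation alone and are called NKT-annotated cells below. They are set beside the 4386 other activated Tconv cells and the 19747 resting Tconv cells of the same samples.

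Natural killer T (NKT) cells are T cells whose receptor recognises lipids on CD1d rather than peptides on MHC molecules. The invariant kind joins the Vα14 segment, encoded by Trav11, to Jα18, and its development is directed by the transcription factor PLZF, the product of Zbtb16. NKT cells leave the thymus already primed, and in the mouse spleen many carry NK cell receptors such as NK1.1 (Klrb1c) and release cytokines and chemokines such as Xcl1 soon after stimulation.

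RNA was counted in single cells as unique molecular identifiers (UMIs) with 10x Genomics kits, in 18 samples of 8 groups, all male spleen cells sorted as TCRβ+ CD4+. The first experiment (V2 kit) compared 3-week-old ∆Foxp3 mice (B6 Foxp3DeltaEGFPiCre x ROSA-YFP, in which EGFP and Cre disrupt the gene of the regulatory T cell factor Foxp3) with 3-week-old WT mice (B6 Foxp3-IRES-GFP), 2 samples each. The second (V3 kit) held 3-week-old ∆Foxp3 mice and 9-week-old WT mice (B6 Foxp3-IRES-GFP x CD45.1), 2 samples each, and the ∆Foxp3 and WT cells of mixed marrow chimeras, 3 samples each, separated by CD45.1 and CD45.2. The chimera recipients were irradiated with 1000 rad at 7 weeks of age and given 4000000 CD3-depleted marrow cells, 50% from each donor (∆Foxp3 donors were B6 Foxp3DeltaEGFPiCre x ROSA-YFP mice crossed to CD45.1/2, WT donors B6 Foxp3-IRES-GFP x CD45.1), and were sampled 10 weeks after the transplant at a labelled age of 16 weeks, so that each ∆Foxp3 sample shared its recipient with a WT sample. Sorted GFP-negative Tconv cells and GFP+ Treg cells of 9-week-old WT mice, 2 samples each, held 1 and 2 NKT-annotated cells and 0 and 0. The labels do not state a separate animal for each mouse sample, and the V3 mouse samples of a group carry 1 hashtag in 2 tubes. P-values then measure the spread between these samples, which may be technical. The age of the V3 mice differs with the genotype, and the effects of the 2 cannot be told apart.

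The NKT-annotated cells of a sample summed to 96137 to 631344 UMIs in the V2 mice and to 28648 to 91617 UMIs in the V3 mice and chimeras. In the 4 V2 samples their median depth was 2945 and 2649 UMIs per cell in ∆Foxp3 mice and 3061 and 3337 in WT mice. Reads assigned to cells made up a deposited fraction of 0.597 and 0.534 for the V2 ∆Foxp3 libraries, beside 0.791 and 0.795 for the WT libraries. In all, 99 cell barcodes occurred in more than 1 sample, and 7 NKT-annotated cells carried one of them. Foxp3, the disrupted gene (chromosome X, 7573644 to 7595245, GRCm38), gave 0 and 2 UMIs in the NKT-annotated cells of V2 ∆Foxp3 mice and 1 and 1 in those of WT mice. GFP, which the ∆Foxp3 allele also encodes, gave 32 and 17 UMIs in V2 ∆Foxp3 samples against 1 and 0 in WT samples, and 14 and 14 UMIs in V3 ∆Foxp3 mice against 0 and 0 in V3 WT mice. In V2 ∆Foxp3 samples 27.7% and 32.4% of the NKT-annotated cells had a GFP UMI, beside 24.8% and 23.98% of the other activated Tconv cells. Cre, carried by the ∆Foxp3 allele alone, gave 2 and 0 UMIs in V2 and 0 and 3 UMIs in V3 ∆Foxp3 mice, and 0 in the NKT-annotated cells of each WT sample.

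The first question was whether the annotated cells carry the genes that define NKT cells. In V2 WT mice they did, and in ∆Foxp3 mice of either experiment they almost did not. Zbtb16 (chromosome 9, 48654297 to 48836222) had 0 and 0 UMIs in the NKT-annotated cells of V2 ∆Foxp3 mice, against 44 and 18 in WT mice. Klrb1c (chromosome 6, 128778485 to 128789215) had 2 and 0 UMIs in ∆Foxp3 mice against 147 and 64 in WT mice, and Xcl1 (chromosome 1, 164931644 to 164935527) had 0 and 0 against 98 and 50. Trav11 (chromosome 14, 53519303 to 53519859), the Vα14 segment, had 1 and 0 UMIs in ∆Foxp3 mice against 61 and 34 in WT mice. For these 4 genes every ∆Foxp3 value lay below both WT values. Nkg7, a granule membrane protein of cytotoxic cells, was the exception among the markers given for the cluster, at 435 and 345 UMIs in ∆Foxp3 mice against 821 and 441 in WT mice, which is 2209 and 3589 CPM (UMIs scaled to the same total in each summed sample) against 1300.4 and 1181 CPM.

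Counted by cell, a UMI of Zbtb16, Klrb1c, Xcl1 or Trav11 was found in 2 of 65 and 0 of 34 NKT-annotated cells of V2 ∆Foxp3 mice, 3.08% and 0%, against 144 of 199 and 72 of 113 in WT mice, 72.4% and 63.7%. With every cell thinned to 1500 UMIs, a depth all cells reached, the shares were 1.54% and 0% in ∆Foxp3 mice and 51.8% and 46.9% in WT mice. In resting Tconv cells, which should lack Klrb1c, a Klrb1c UMI was seen in 0.126% and 0.514% of cells in ∆Foxp3 mice and in 0.318% and 0.155% in WT mice; among NKT-annotated cells it was seen in 3.08% and 0% against 34.7% and 31.9%. Cells with a UMI of at least 1 of the 4 genes under any annotation numbered 38 and 21 in V2 ∆Foxp3 mice, of which 2 and 0 were NKT-annotated, against 183 and 106 in WT mice, of which 144 and 72 were. Xcl1 had 47 and 17 UMIs over all annotated cells of the ∆Foxp3 samples, 4.51 and 3.98 CPM, against 105 and 63 UMIs in the WT samples, 7.05 and 5.53 CPM. The Xcl1 UMIs of the ∆Foxp3 samples thus lay outside the NKT annotation. Cells with UMIs of at least 2 of the 4 genes made up 1 of 3290 and 1 of 1442 annotated cells in V2 ∆Foxp3 mice, against 60 of 5271 and 34 of 3918 in WT mice (1.14% and 0.868%), of which 58 and 29 lay in the NKT annotation; of the ∆Foxp3 cells the first lay in it and the second among the other activated Tconv cells.

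In the V3 experiment, where fewer cells were annotated, 0 of 14 and 1 of 13 NKT-annotated cells of ∆Foxp3 mice had a UMI of 1 of the 4 genes, against 4 of 7 and 0 of 6 in 9-week-old WT mice. The WT samples overlapped the ∆Foxp3 samples, since the 6 cells of WT replicate 2 held none. In the chimeras 1 of 9, 5 of 7 and 4 of 12 cells of ∆Foxp3 origin were marked, against 6 of 8, 2 of 14 and 1 of 7 of WT origin, so that the origins overlapped over the whole range. Summed over a group, this is 10 of 28 cells of ∆Foxp3 origin and 9 of 29 of WT origin. Xcl1 was measured at 38.9, 486 and 90.3 CPM in ∆Foxp3 chimera cells and at 496, 81.3 and 175 CPM in WT chimera cells, while both V3 ∆Foxp3 mice held 0. In ∆Foxp3 mice the data thus go against the label for 3 of the 4 markers given for the cluster, and the cells are named here by their annotation.

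**Figure D1:**
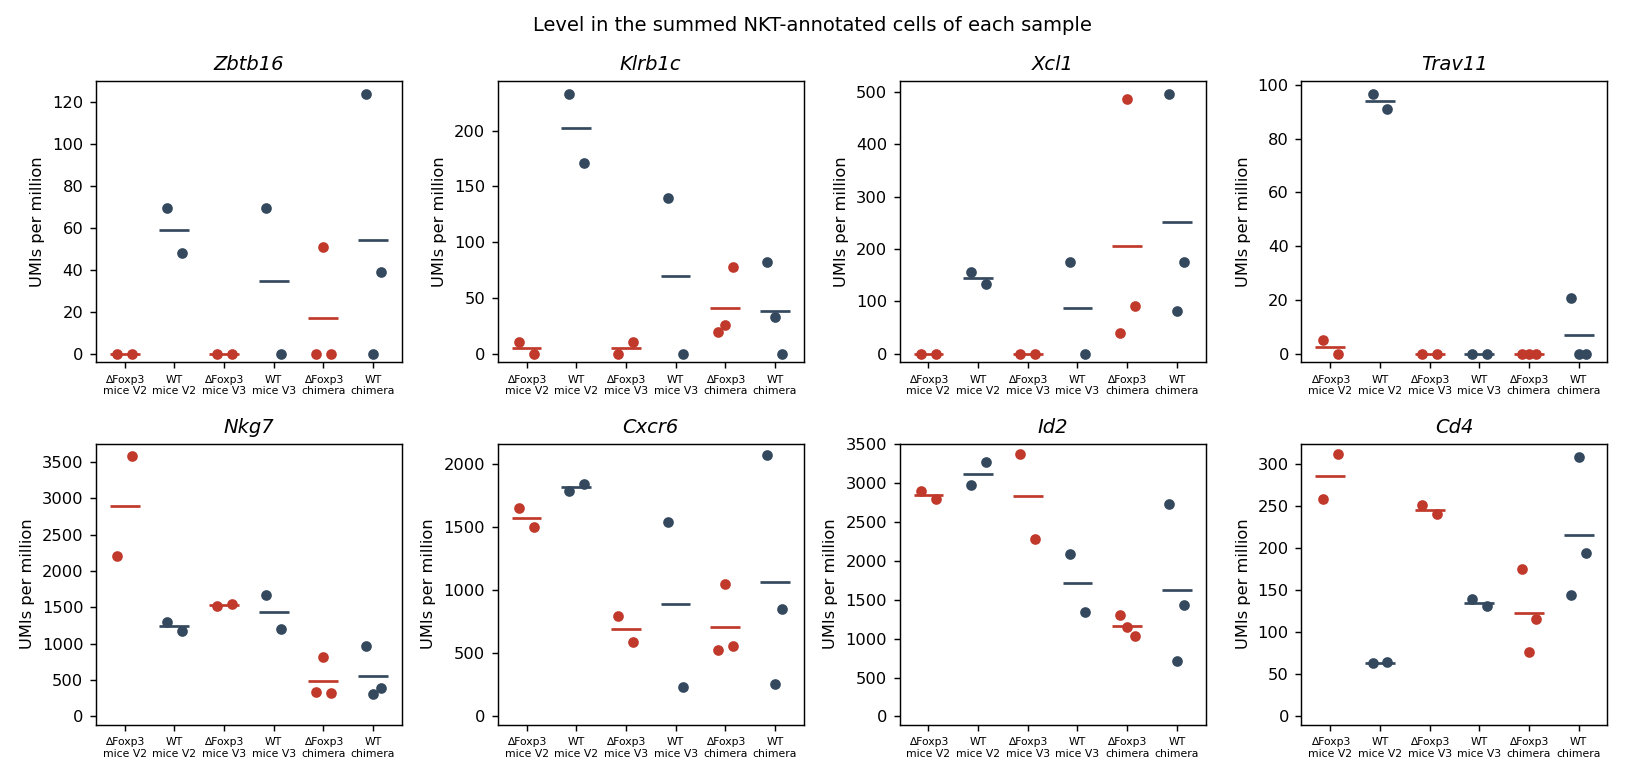
CPM (vertical axes, from 0) of 8 genes in the summed NKT-annotated cells of each sample, ∆Foxp3 in red and WT in dark blue; points are samples and lines are group means. Zbtb16, Klrb1c, Xcl1 and Trav11 lie at or near 0 in the ∆Foxp3 mice and are present in the V2 WT mice, while Nkg7, Cxcr6 and Id2 are found in every sample.

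Other lymphocytes were looked for by their markers. The NKT-annotated cells were αβ T cells by their CD3 and receptor genes, and Ncr1, which marks NK cells, had 0 UMIs in V2 mice of either genotype. The summed level of 12 NK cell markers was 102 to 135 CPM in V2 ∆Foxp3 mice, with 4 of 12 detected. In WT mice it was 58.6 to 58.9 CPM, with 7 of 12 detected. The other activated Tconv cells also held more in ∆Foxp3 samples, 76.7 to 93.7 CPM against 39.2 to 55.4 CPM in WT mice. Of 6 γδ T cell markers 1 was detected in ∆Foxp3 mice (2 UMIs) and 5 in WT mice (37 UMIs). The WT sums held more UMIs in all, so the numbers of markers detected do not compare at like depth. The pair of MAIT cell segments Trav1 and Traj33 had 0 UMIs in both. Traj18, the Jα18 segment, also had 0 UMIs in both, although the WT cells held Trav11, so a 0 of Traj33 shows no absence. The part of other lymphocytes in the results below was not tested.

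Cd4 and the Cd8 genes also differed. Cd4, the coreceptor used for the sort, stood at 259 and 312 CPM in the NKT-annotated cells of V2 ∆Foxp3 mice against 63.4 and 64.3 CPM in WT mice, and rose (log2 fold change 2.05 with SE 0.24, edgeR adjusted p 1.19e-07). A Cd4 UMI was seen in 35 of 65 and 18 of 34 cells of ∆Foxp3 mice and in 36 of 199 and 21 of 113 of WT mice. In other activated Tconv cells Cd4 stood at 185 and 197 CPM in ∆Foxp3 samples and 219.96 and 216 CPM in WT mice, so the low level was that of the WT NKT-annotated cells. A Cd8a or Cd8b1 UMI was found in 4 and 5 NKT-annotated cells of V2 ∆Foxp3 mice, 6.15% and 14.7%, against 1 and 1 in WT mice, 0.503% and 0.885%. The same genes were seen in 9.56% and 10.2% of resting Tconv cells of the ∆Foxp3 samples and 6.52% and 6.34% of those of the WT samples. The first ∆Foxp3 share lies below that of the resting cells of its sample and the second above it, and both WT shares lie below. The summed level of Cd8a and Cd8b1 was 112 and 208 CPM in ∆Foxp3 samples against 1.58 and 2.68 CPM in WT mice, and its part in the results was not tested beyond the following count. Without the cells with a Cd8 UMI, an alternative chosen after the data were seen, 241 genes were higher and 238 lower between the genotypes, close to the counts given below.

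The second question was how large a share of the CD4 cells the annotation takes. NKT-annotated cells were 65 of 3290 and 34 of 1442 cells in V2 ∆Foxp3 mice, 1.98% and 2.36%, against 199 of 5271 and 113 of 3918 in WT mice, 3.78% and 2.88%. The means of 2.17% ± 0.270 and 3.33% ± 0.630 (SD, n = 2 each) gave a difference that did not pass the edgeR quasi-likelihood test on numbers of cells (log2 fold change -0.63 with SE 0.46, adjusted p 0.256 over all clusters). With TMM factors over the clusters the same test passed (log2 fold change -1.47 with SE 0.57, adjusted p 0.0498), so the call depends on the scaling. The exact two-sided permutation test gave 0.333, the smallest p that 2 against 2 samples allow. In the V3 mice the cells were 14 and 13 in ∆Foxp3 mice, 1.40% and 1.39%, against 7 and 6 in 9-week-old WT mice, 0.860% and 1.70% (log2 fold change 0.26, edgeR adjusted p 0.729). In the chimeras ∆Foxp3 cells gave 0.421%, 0.770% and 0.578% and WT cells 1.07%, 0.757% and 0.834% (log2 fold change -0.61, edgeR adjusted p 0.345, exact permutation p 0.2 where 0.1 is the smallest possible). No sorted Treg cell was annotated NKT, which with 331 and 231 cells allows shares of up to 0.906% and 1.30%.

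The denominator changed that answer, and so did a marker set without Nkg7. As a share of activated Tconv cells, which made up 717 of 3290 and 551 of 1442 cells in V2 ∆Foxp3 mice against 590 of 5271 and 488 of 3918 in WT mice, NKT-annotated cells fell to 9.07% and 6.17% in ∆Foxp3 mice against 33.7% and 23.2% in WT mice (log2 fold change -1.89, edgeR adjusted p 0.00552). In the V3 mice they fell to 3.04% and 2.93% in ∆Foxp3 mice against 5.88% and 8.57% in WT mice (log2 fold change -1.21, edgeR adjusted p 0.0277). There activated Tconv cells were 460 of 1001 and 444 of 936 cells in ∆Foxp3 mice, against 119 of 814 and 70 of 352 in WT mice. The exact permutation test gave 0.333 for this share in V2 and in V3 mice, the smallest p possible with 2 against 2 samples. The chimera difference did not pass the threshold (edgeR log2 fold change -0.31, adjusted p 0.671). A planned fit counted only NKT-annotated cells with a UMI of Zbtb16, Klrb1c, Nkg7 or Xcl1, the markers given. It left the V2 share near its first value (log2 fold change -0.62 with SE 0.51, edgeR adjusted p 0.305). A second set left out Nkg7, took in Trav11 and was chosen after the data were seen. With a UMI of Zbtb16, Klrb1c, Xcl1 or Trav11 required, the share of V2 CD4 cells fell with a log2 fold change of -5.67 (SE 0.70). These genes lie near 0 in the ∆Foxp3 cells, so the fall follows from the choice and is no test. The same count gave -2.45 in the V3 mice (SE 2.17, adjusted p 0.385) and -0.42 in the chimeras (SE 1.15, adjusted p 0.906), neither past the threshold. Fewer cells of a kind and less RNA of these genes per cell cannot be told apart by this count.

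The NKT-annotated cells were next set against the other activated Tconv cells of the same V2 sample, as log2 ratios of CPM + 10. The clusters were made from these same values, so the ratios describe the annotation and carry no test. The genes that were highest over the others in all 4 samples were, by the smallest ratio of the 4, Ckb, Asb2, Dusp6, Fgl2, Ccr9, Cxcr6, Abi3, Atp8a2, Ptger4, Fasl, Serpina3f, Slc25a39, Id2, Tnfrsf1a and Cd160. Cxcr6, a chemokine receptor of tissue-lodging lymphocytes, was at 1650.2 and 1498 CPM in NKT-annotated cells of ∆Foxp3 mice and 1787 and 1843 CPM in those of WT mice, with ratios of 1.39 and 1.02 in ∆Foxp3 mice and 2.74 and 3.30 in WT mice. Id2, which holds E proteins in check and is needed by NKT and NK cells, was at 2899 and 2798 CPM in ∆Foxp3 samples and 2973 and 3265 CPM in WT mice, with ratios of 1.28 and 0.86 in ∆Foxp3 mice and 1.99 and 2.70 in WT mice. Both genes thus stood at like levels in the NKT-annotated cells of either genotype. The ratios were smaller in the ∆Foxp3 samples.

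The lowest genes over the same samples were Klf2, S1pr1, Ccr7, Pdlim1, Lgals1, Rasgrp2, Flna, Rasa3, S100a6 and Vim. Klf2, S1pr1 and Ccr7 guide recirculation through blood and lymphoid organs. Klf2 was at 193 and 72.8 CPM in NKT-annotated cells of ∆Foxp3 mice and 93.5 and 67.0 CPM in those of WT mice, against 1176 and 1005 CPM in other activated cells of ∆Foxp3 mice and 1489 and 1521 CPM in those of WT mice. Against resting Tconv cells 7 of these 10 low genes kept their sign in all 4 samples, and S100a6, Lgals1 and Vim did not. All 15 high genes were also higher than in resting Tconv cells. After cells with UMIs of 2 or more markers of other cells were left out, 13 of the 15 high and all 10 low genes kept their sign.

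Ranked in the WT samples alone, the 15 highest genes included Xcl1, Trav11 and Klrb1c but neither Zbtb16 nor Nkg7. Xcl1 had ratios of 3.73 and 3.62, Trav11 of 3.30 and 2.82, Klrb1c of 3.39 and 2.55, and Klrc1 (NKG2A, an inhibitory NK receptor) of 2.42 and 2.08. The ∆Foxp3 samples, given for the same genes, had ratios of -1.30 and -0.54 for Xcl1, 0.59 and 0 for Trav11, 0.51 and -0.60 for Klrb1c, and -1.55 and -0.03 for Klrc1. Ranked in the ∆Foxp3 samples alone, the highest genes were Cd7, Ckb, Rgs1, Asb2, Serpina3g, Dusp6, Abi3, Fgl2, Gpr18 and Plac8. Cd7, a costimulatory receptor of T and NK cells, had ratios of 1.83 and 1.70 in ∆Foxp3 samples and -0.01 and 0.20 in WT samples. None of the 10 is among the 4 markers given for the cluster.

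**Figure D2:**
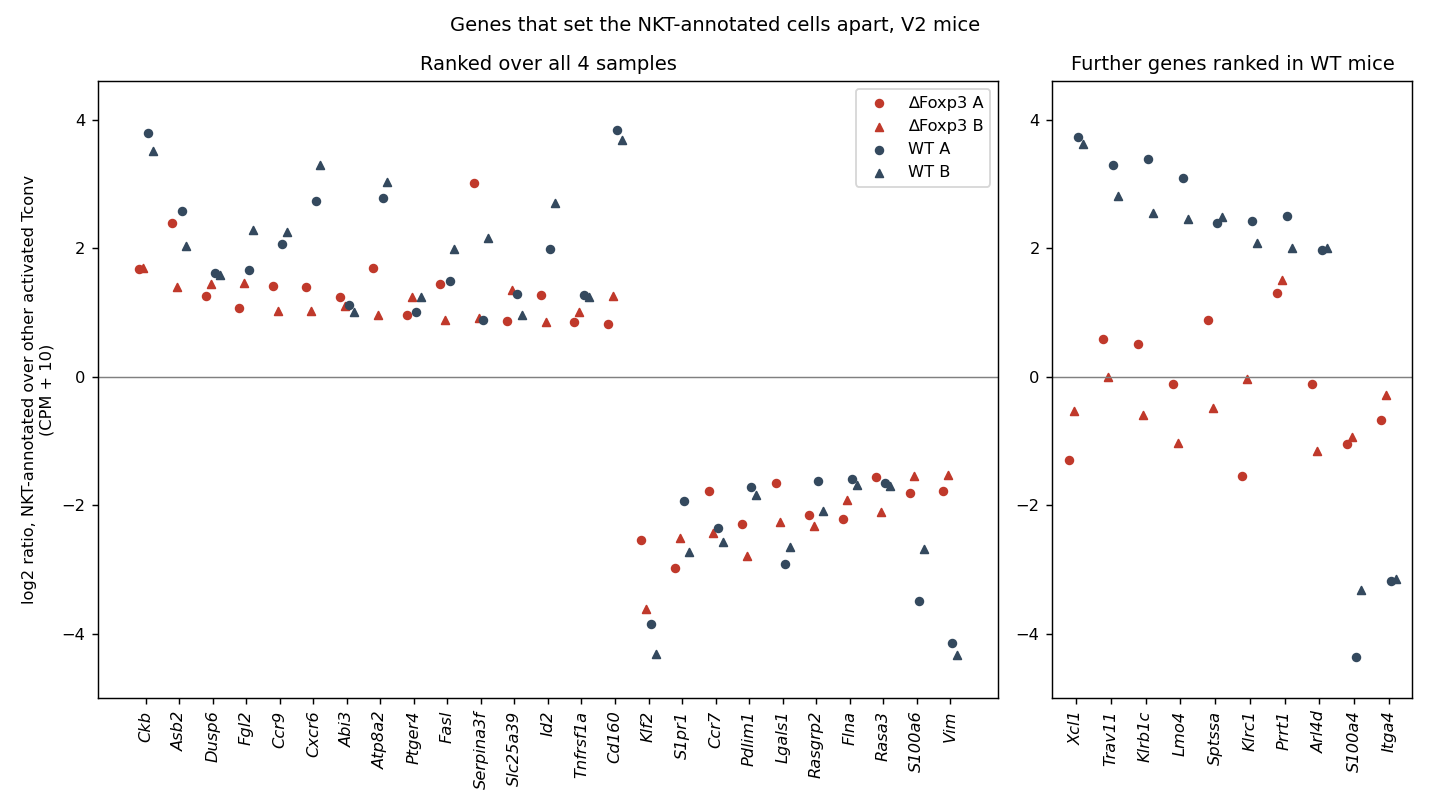
Log2 ratio of CPM + 10 (vertical axis) between NKT-annotated and other activated Tconv cells of the same V2 sample, ∆Foxp3 in red and WT in dark blue, circles for replicate A and triangles for B. The left genes keep their sign in all 4 samples; among the right ones, ranked in WT mice, Xcl1 reaches 3.73 and 3.62 in WT and -1.30 and -0.54 in ∆Foxp3 samples.

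Expression was then compared between genotypes within the annotation. Of 3536 genes tested in V2 mice, 244 (6.90%) were higher and 222 (6.28%) lower in ∆Foxp3 NKT-annotated cells, 13.2% in all (edgeR quasi-likelihood test, adjusted p under 0.05), with a median log2 fold change of -0.02 over all genes. Leaving out WT replicate A or WT replicate B left 0 and 0 genes called by edgeR, with 386 and 447 at an unadjusted p under 0.05. Without ∆Foxp3 replicate A 132 were higher and 171 lower, and DESeq2 on all 4 samples called 90 higher and 66 lower. Cells with UMIs of 2 or more markers of other cells numbered 34 and 28 in ∆Foxp3 samples and 91 and 61 in WT samples, and without them ∆Foxp3 replicate B had too few cells to enter and edgeR called 0 genes, with 380 at an unadjusted p under 0.05.

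The genes with the highest fold changes in ∆Foxp3 mice included granzymes, inhibitory receptors and chemokines. Gzma and Gzmb, the granzymes that kill target cells, were at 350.3 and 447 CPM and at 625 and 385 CPM in ∆Foxp3 samples, against 1.58 and 0 CPM and 1.58 and 5.36 CPM in WT mice. Over the group, Gzmb had 160 UMIs in ∆Foxp3 and 3 in WT cells, a ratio of 183 (95% counting interval 61.4 to 896), and Gzma 112 and 1 UMIs, a ratio of 384 (67.5 to 15299). The ∆Foxp3 samples lay far above both WT samples for each. Lag3, an inhibitory receptor, was at 178 and 374 CPM in ∆Foxp3 samples against 1.58 and 0 CPM in WT mice (ratio 243, interval 42.3 to 9747), and Lilrb4, another inhibitory receptor, at 152 and 146 CPM against 1.58 and 0 CPM. Lilrb4 and Gp49a, which also rose, are near copies of each other, so reads may be split between them.

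Ccl4 and Ccl3, chemokines that draw leukocytes, had 72 and 17 UMIs over the ∆Foxp3 group and 1 and 0 over the WT group. Ccl3 was at least 19.4-fold higher in ∆Foxp3 cells against a floor of 3 counts over the WT group. Ccl5, another chemokine, was high in both genotypes, at 19294 and 35366 CPM in ∆Foxp3 samples and 3127 and 3739 CPM in WT mice (log2 fold change 2.93 with SE 0.15, edgeR adjusted p 2.33e-16). Serpina3g, a protease inhibitor, was at 1066 and 1103 CPM in ∆Foxp3 samples against 30.1 and 16.1 CPM in WT mice (log2 fold change 5.36 with SE 0.22, edgeR adjusted p 1.29e-18). S100a4, a calcium-binding protein of effector T cells, was at 594 and 666 CPM in ∆Foxp3 samples against 14.3 and 26.8 CPM in WT mice, and Vim, the filament protein vimentin, at 345 and 458 CPM against 15.8 and 13.4 CPM (log2 fold changes 4.94 and 4.59). Casp1, the inflammasome protease, Gzmk, Cd8a, Metrnl and Ubash3a, which dampens T cell receptor signalling, complete the 15 with the highest fold changes by the rule used. Nkg7 rose as well (log2 fold change 1.11 with SE 0.13, edgeR adjusted p 1.37e-07).

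The genes lower in ∆Foxp3 mice were led by NKT and NK receptor genes. Xcl1, Klrk1 (NKG2D, an activating receptor), Zbtb16, Samd3 and Gm22513 had 0 UMIs over the ∆Foxp3 group, and against a floor of 3 counts over that group they were at least 14.4-fold, 8.07-fold, 6.03-fold, 7.20-fold and 6.81-fold lower. Klrb1c was lower with 2 UMIs in the ∆Foxp3 group and 211 in the WT group, a WT over ∆Foxp3 ratio of 30.8 (interval 8.41 to 256), and Trav11 with 1 and 95 UMIs, a ratio of 27.7 (4.86 to 1106). Trav11 has a near copy in Trav11d, and reads may be split between them. Lmo4, a LIM-domain cofactor of transcription, stood at 15.2 and 0 CPM in ∆Foxp3 samples against 272 and 254 CPM in WT mice. Klrc1 and Klrc2, a near-identical pair of NKG2 receptor genes, and Lyst, Arl4d, Ctse, Ipo11 and Sesn1 complete the 15 lowest. For all 15 the samples of the genotypes did not overlap, as the rule requires.

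The counts by gene list stand beside 6.90% of all tested genes higher and 6.28% lower. A gene can also enter the test through the one genotype in which it is high, and its direction is then fixed: this held for 85 of the 244 higher and 61 of the 222 lower genes, which met the filter's level of 35.1 CPM in both samples of only that genotype. Of the 26 NK receptors 7 were tested, and 6 of them fell, 5 of which met that level in WT mice only, so their count shows no direction of the list. Of the 12 NKT identity genes 11 were tested, 7 fell, 5 of them at that level in WT mice only, and 1, Nkg7, rose, with Ly6c2, Klrd1 (CD94) and Tbx21 (T-bet) among those that fell and Cxcr6, Il2rb and Ctsw not past the threshold. Genes of resting T cells fell in 4 of 10 tested cases, 2 of them at the filter's level in WT mice only; among the 4 were Satb1, a chromatin organiser, and Il7r, the receptor of interleukin 7. Il4, the classical early cytokine of NKT cells, had 1 and 0 UMIs in ∆Foxp3 mice against 20 and 16 in WT mice and was below the filter. Ifng, the cytokine of type 1 responses, was at 122 and 72.8 CPM in ∆Foxp3 samples against 31.7 and 16.1 CPM in WT mice. It rose (log2 fold change 1.95 with SE 0.42, edgeR adjusted p 0.000996). Ifng met the filter's level in ∆Foxp3 mice only, so its direction was fixed.

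Of 26 activated and memory genes 23 were tested, and 17 rose and 0 fell, 7 of the 17 at the filter's level in ∆Foxp3 mice only, with S100a4, Lgals1, Vim and Crip1 at the lowest p. Cytotoxic granule genes rose in 7 of 10 tested cases. Gzma, Gzmb, Gzmk and Cst7 were at that level in ∆Foxp3 mice only, so the direction of these 4 was fixed. The count of 7 thus shows no direction of the list. Nkg7, Ctsd and Srgn, which also rose, were not in that case. Of the inhibitory receptors 6 of 13 were tested: Lag3, Lilrb4, Pdcd1 and Ctla4 rose, all 4 at that level in ∆Foxp3 mice only, so their count shows no direction of the list, and Cd160 fell. Class I antigen presentation genes rose in 6 of 16, with Tap1, the peptide transporter, at 472 and 416 CPM in ∆Foxp3 samples against 127 and 85.7 CPM in WT mice. The interferon response list was split, with 7 of 24 higher and 4 lower. Proliferation genes rose in 4 of 9 tested cases, 1 of them at the filter's level in ∆Foxp3 mice only, and heat shock genes fell in 3 of 7. Cytokine receptors, with 1 of 13 higher (Ifngr1) and 2 lower (Il7r and Il2rg), and glycolysis genes, with 1 of 10 higher (Gapdh), lay near the shares over all tested genes and give no result about those lists.

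Mitochondrially encoded transcripts fell in 9 of 10 tested cases (median log2 fold change -0.81 beside -0.02 over all genes), and all 9 met the filter's level in both genotypes. The median percent of mitochondrial UMIs was 1.77% and 1.80% in the NKT-annotated cells of V2 ∆Foxp3 mice against 3.23% and 3.03% in WT mice, and 2.34% and 2.23% against 2.64% and 2.66% in other activated Tconv cells. The fraction of reads in cells given above moves with the same groups. Among other marker lists, the summed erythroid level was 117 to 739 CPM in ∆Foxp3 samples and 123 to 155 CPM in WT mice, the myeloid level 291 to 381 CPM against 143 to 238 CPM, and the B cell level 52.0 to 142 CPM against 187 to 249 CPM. Their part in the result was not tested.

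**Figure D3:**
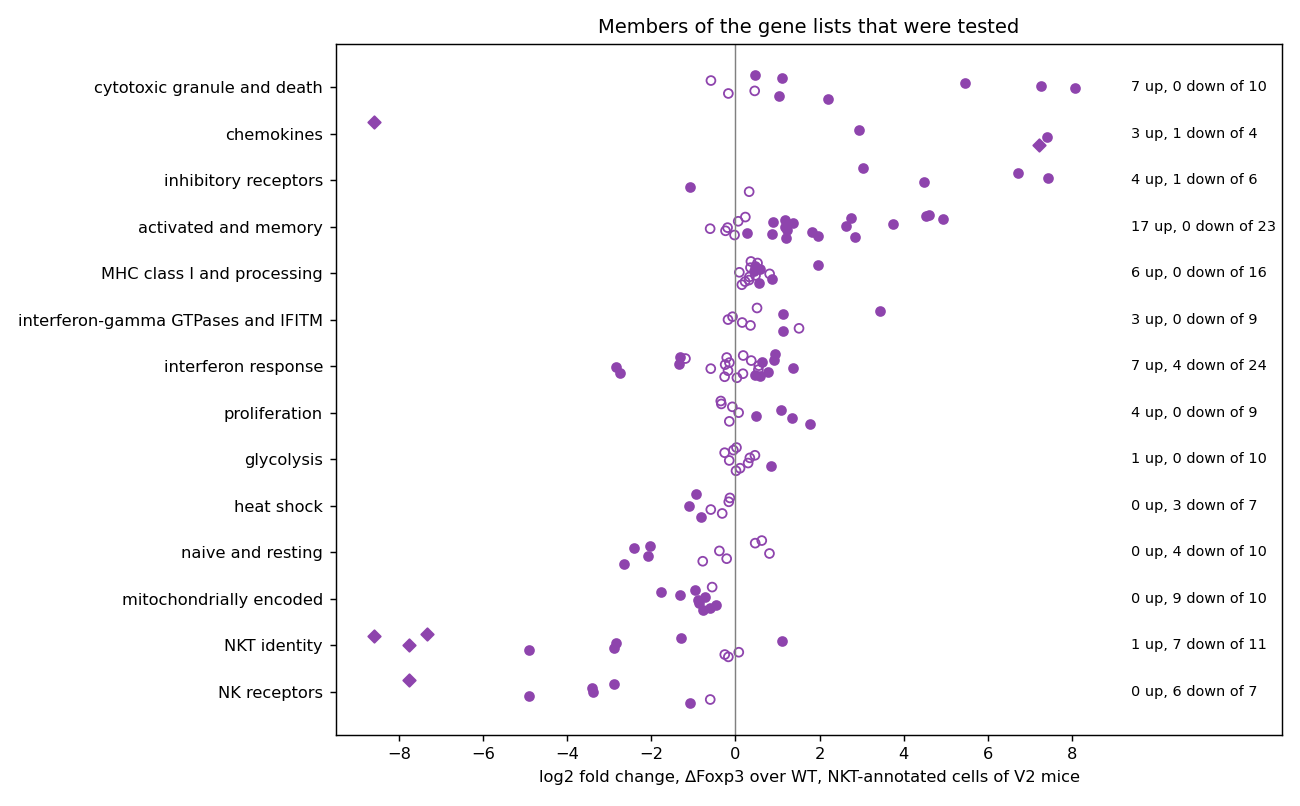
Log2 fold change (horizontal axis, ∆Foxp3 over WT) of each tested gene of 14 lists in the NKT-annotated cells of V2 mice; filled points pass an adjusted p of 0.05, open points do not, and diamonds mark genes with 0 UMIs in a group, whose fitted value is no measured fold. The grey line is the median of all genes; 17 of 23 activated and memory genes are called to its right, and 9 of 10 mitochondrially encoded genes to its left.

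A change within the NKT annotation may be one that all activated cells share, so the difference between the changes in NKT-annotated and other activated Tconv cells was tested in the V2 mice. Of 7170 genes, 92 (1.28%) had a more positive and 89 (1.24%) a more negative log2 change, ∆Foxp3 over WT, in NKT-annotated cells, 2.52% in all (edgeR quasi-likelihood test of the interaction, adjusted p under 0.05); in the other activated cells themselves 12.1% of 7636 genes changed, 7.23% higher and 4.85% lower. The 92 and 89 differences fell to 38 and 41 without WT replicate A, to 51 and 52 without WT replicate B, to 50 and 56 without ∆Foxp3 replicate A and to 73 and 52 without ∆Foxp3 replicate B. Without WT replicate B the other activated cells gave 344 higher and 183 lower genes. Of the 466 genes called within NKT-annotated cells 460 entered the test of the difference, and 121 passed it. In the other activated cells 211 of these were called in the same direction and 15 in the opposite one. There, 19 of 26 activated and memory genes and 9 of 18 class I genes rose, with 0 lower in either list. Granzymes were among the genes with the more positive change in NKT-annotated cells. Gzmb rose in both classes, with 422 and 459 CPM in the other activated cells of ∆Foxp3 mice against 44.7 and 35.7 CPM in those of WT mice (difference between changes 3.96 with SE 0.56, adjusted p 8.11e-10 in edgeR). Gzmk was at 71.1 and 177 CPM in ∆Foxp3 NKT-annotated cells against 1.58 and 2.68 CPM in WT ones, while other activated cells held 45.5 and 67.7 CPM in ∆Foxp3 samples and 45.5 and 38.3 CPM in WT mice (difference 5.28 with SE 0.72, adjusted p 1.11e-10). Ctla4 had the same form, with 50.8 and 62.4 CPM against 3.17 and 0 CPM in NKT-annotated cells, and 48.2 and 32.5 CPM against 33.1 and 33.1 CPM in the others. In ∆Foxp3 mice, for these genes, the annotated cells stood near or above the other activated cells, and in WT mice below them.

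Cxcr6, Id2 and Cd160 had a more negative change in NKT-annotated cells, which stood above the other activated cells in all 4 samples. Cd160 fell in NKT-annotated cells and rose in the others. Cxcr6 did not pass within NKT-annotated cells (log2 fold change -0.25, edgeR adjusted p 0.115) but rose in the other activated cells, which held 623 and 735 CPM in ∆Foxp3 samples and 260 and 179 CPM in WT mice (difference between changes -1.87 with SE 0.15, adjusted p 9.64e-34). Id2 differed likewise (-1.32, adjusted p 3.16e-19). Ly6c2, a surface protein of memory-type T cells with a near copy in Ly6c1, fell in NKT-annotated cells to 86.3 and 104 CPM in ∆Foxp3 samples against 713 and 541 CPM in WT mice, and rose in the others to 401 and 454 CPM against 311 and 247 CPM (difference -3.41 with SE 0.24, adjusted p 9.70e-41). Of 11 NKT identity genes tested, 8 had a more negative change in the NKT-annotated cells and 0 a more positive one. Among the 8, Xcl1, Klrb1c, Klrd1 and Klrk1 met the filter's level within the annotation in WT mice only. The list was also chosen with these data known, so the count shows no direction of the list. Mitochondrially encoded genes had a more negative change in NKT-annotated cells in 8 of 11 cases, with a median log2 fold change of -0.26 and 0 of 11 called in the other activated cells, Cd4 had a more positive one (2.26, adjusted p 1.12e-13), and the proliferation list differed in 1 of 26 genes.

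**Figure D4:**
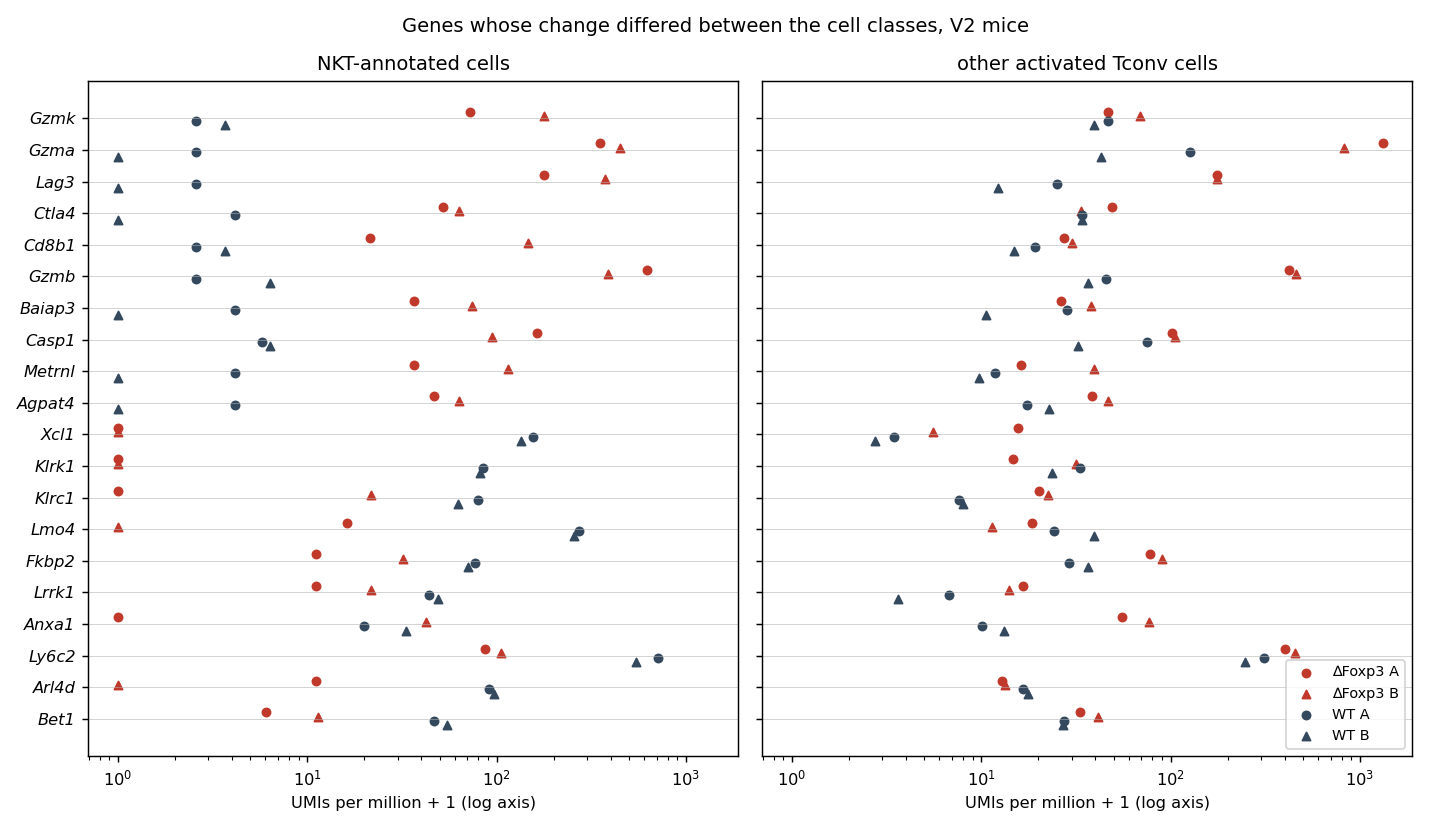
CPM + 1 (horizontal log axis) of the 20 genes named for the difference between the changes, in NKT-annotated (left) and other activated Tconv cells (right) of the V2 samples, ∆Foxp3 in red and WT in dark blue. The genotypes lie apart on the left for all but Anxa1, whose 2 ∆Foxp3 values lie on either side of WT, and nearer together on the right for Gzmk, Ctla4 and Klrk1.

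The V3 mice gave 6 to 14 NKT-annotated cells per sample. Neither the V3 mice nor the chimeras had 2 samples of at least 10 cells in both groups, where the plan set values without a test. The tests of both were run all the same, at 5 cells and outside the plan, in the same fit. Of 950 genes, 12 (1.26%) were higher and 9 (0.947%) lower in ∆Foxp3 mice, 2.21% in all; without WT replicate 1 the counts were 7 and 5, and without ∆Foxp3 replicate 2 they were 9 and 5. Gzmb was at 939 and 1126 CPM in ∆Foxp3 samples against 0 and 26.3 CPM in the older WT mice, which is 189 UMIs against 1 (ratio 68.8, interval 12.2 to 2733). Vim had 201 UMIs in ∆Foxp3 and 0 in WT cells, at least 24.4-fold higher, and S100a4 stood at 2074 and 2601 CPM in ∆Foxp3 samples against 175 and 158 CPM in WT mice (log2 fold change 3.79 with SE 0.56, edgeR adjusted p 0.000371). Il18r1 and Ifngr1, receptors for interleukin 18 and interferon-γ, rose (log2 fold changes 3.97 and 2.86), as did Serpina3g, S100a6, S100a11, Crip1, Tnfrsf4, Ctla2a and Rbm3. Gzma, below the filter, had 6 and 160 UMIs in ∆Foxp3 and 0 and 0 in WT mice, most of them in 1 sample. Ccl4 had 2 and 1 UMIs against 28 and 0, most of them in 1 WT sample, so that the groups overlapped. The genes that fell were Dtx1, a Notch pathway ligase, Chd3, Eif4b, Ifi27l2a, Shisa5, Malat1, mt-Nd2, mt-Cytb and mt-Nd4. Of 466 genes called in V2 mice 257 were tested in V3 mice, and 206 of them (80.2%) had the same sign. Of the 947 genes in both fits, which include these 257, 65.6% had the same sign. No sample was shared between the experiments. Gzmb, Vim and S100a4, among the 257, met the V2 filter's level in ∆Foxp3 mice only. Which genes met the V3 filter's level in ∆Foxp3 mice only was not counted. Part of the 206 signs, and of the V3 calls, may thus have been fixed in advance. Of the 21 V3 calls 17 were V2 calls in the same direction and 1, Ifi27l2a, in the other.

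In the chimeras, where ∆Foxp3 and WT cells shared a recipient, 2 of 950 genes (0.211%) were higher and 0 lower in cells of ∆Foxp3 origin, with 37 at an unadjusted p under 0.05 by edgeR and 11 by DESeq2, which also called 2 and 0. Without ∆Foxp3 replicate 3, WT replicate 1 or WT replicate 3 edgeR called 0 genes, with 36, 47 and 36 at an unadjusted p under 0.05, and without each of the other samples 1. Cd7 had 175, 691 and 219 CPM in ∆Foxp3 and 20.7, 32.5 and 19.4 CPM in WT chimera cells (log2 fold change 3.66 with SE 0.72, edgeR adjusted p 0.0300), so that the origins did not overlap. Cd7 was also among the genes that rose in V2 mice, at 721 and 1571 CPM in ∆Foxp3 against 99.8 and 85.7 CPM in WT mice. Crip1, a LIM protein of memory T cells, was at 623, 307 and 426 CPM in ∆Foxp3 chimera cells. WT chimera cells held 62.0, 179 and 116 CPM (log2 fold change 1.90 with SE 0.36, edgeR adjusted p 0.0300). For the V3 fit it was not counted which genes met the filter's level in ∆Foxp3 cells only. The direction of the Cd7 and Crip1 calls may have been fixed in that way. Gzmb gave 1, 0 and 7 UMIs in ∆Foxp3 and 0, 2 and 0 UMIs in WT chimera cells, and Serpina3g had a log2 fold change of -1.31, neither past the threshold. Of the 257 V2 calls tested here, 109 (42.4%) had the same sign in the chimeras. Of all genes in both fits, which include these 257, 48.5% did.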

How the data were processed

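The authors deposited UMI counts as 1 matrix (26652 cells, 33006 genes); the submitters' processing notes list Cell Ranger 3.0.2 and the build mm10. The sources used here do not say how strand and near copies were handled. The cell annotation, the percent of mitochondrial UMIs, the Scrublet doublet score (at most 0.293, no cell removed) and the fraction of reads in cells are deposited by the authors. The Foxp3 row of the matrix is a sum with GFP (WT) or Cre (∆Foxp3) and was left out of the tests; the separate deposited counts were used. Of the metadata columns 44 were not used. The metadata name the V3 kit for all cells; the labels were followed.

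Sums of UMIs per sample and class went into edgeR 4.0.16 under R 4.3.3, in samples with at least 10 cells. It used factors by TMM, filterByExpr at min.count 10, and the quasi-likelihood test at a Benjamini-Hochberg adjusted p under 0.05. DESeq2 1.42.0 and limma 3.58.1 were alternatives. No V3 pair of groups had 2 samples of at least 10 cells each, where the plan set values without a test. The V3 expression tests were run outside the plan, at 5 cells. Shares were tested by edgeR on cells per cluster and by exact permutation. The scripts were tested on simulated data. Sums and intervals were made in Python 3.11.15 (pandas 2.3.3, numpy 2.4.6, scipy 1.17.1), and figures in matplotlib 3.10.9. The NKT-annotated cells and the gene lists (513 members matched by symbol, 14 by an older symbol, 2 not at all) were chosen with earlier results of these data known. Genes named for a change are the 15 highest and 15 lowest (10 and 10 for the difference between classes) called genes with at least 20 CPM on average and no overlap between the samples' CPM (for the difference, between the samples' log2 ratios of NKT-annotated to other activated cells); identity genes are the 15 highest and 10 lowest among those with at least 50 CPM. A gene at 0 in a group was set against 3 counts over the group. Same-numbered chimera samples share a recipient; their deviations correlated at -0.19, -0.05 and -0.03. Intervals and floors cover counting error only.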

Additional observations from a re-analysis of the deposited data

Results flagged for a closer look

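The test of the difference between genotype changes in NKT-annotated and other activated Tconv cells set apart the genes named here, as values on the log2 scale; those of genes with 0 UMIs in a class and genotype depend on the fit and are no measured fold. The change was more positive in NKT-annotated cells for these genes, by the log2 difference given after each: Gzmk 5.28, Gzma 4.77, Lag3 4.54, Ctla4 4.28, Cd8b1 4.12, Gzmb 3.96, Baiap3 3.94, Casp1 3.89, Metrnl 3.62, Agpat4 3.44. It was more negative in NKT-annotated cells for these genes: Xcl1 -12.42, Klrk1 -8.77, Klrc1 -4.94, Lmo4 -3.73, Fkbp2 -3.52, Lrrk1 -3.51, Anxa1 -3.45, Ly6c2 -3.41, Arl4d -3.40, Bet1 -3.29. Xcl1 and Klrk1 had 0 UMIs in the ∆Foxp3 NKT-annotated cells. By DESeq2 on all samples only 11 of the 20 genes passed, 4 did not, and the rest were given no adjusted p. Without WT replicate A, 7 of the 20 no longer passed, and without each other sample 3 to 5 no longer passed.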

How the results depend on the processing

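The V2 share of CD4 cells did not pass in the planned fits except against activated Tconv cells (log2 fold change -1.89) and with TMM over clusters (-1.47). The planned fit with the 4 markers given, Nkg7 among them, gave -0.62. The fit with marked cells only, by a set without Nkg7 chosen after the data were seen, gave -5.67 and is no test. Leaving out 1 sample gave -0.81 to -0.42. The V3 mouse share turned its sign against activated Tconv cells (-1.21), with marked cells only (-2.45) and without WT replicate 1 (-0.29; range without 1 sample -0.29 to 0.69). The chimera share stayed at -0.76 to -0.40 without 1 sample. In V2 NKT-annotated cells DESeq2 called 90 higher and 66 lower genes. Leaving out 1 sample gave 0 to 225 higher and 0 to 204 lower. Leaving out cells with UMIs of 2 or more markers of other cells, which took ∆Foxp3 replicate B below 10 cells, gave 0 higher and 0 lower (edgeR, 380 at an unadjusted p under 0.05), with Ikzf2 at -0.25 against 1.01; fewer samples entered that fit. For the difference between classes DESeq2 called 28 more positive and 16 more negative changes, the fit without cells with other markers 20 and 12, and the fits without 1 sample 38 to 73 and 41 to 56. In other activated cells the fits without 1 sample gave 344 to 632 and 183 to 452. In the V3 mice a minimum count of 5 gave 19 higher genes, and leaving out 1 sample 7 to 11 higher and 5 to 6 lower; in the chimeras leaving out 1 sample gave 0 to 1 higher. The cause of these moves was not tested where not stated.

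With the replicate block, the V2 fit called 268 higher and 245 lower, the difference between classes 86 and 83, other activated cells 689 and 490, the V3 mice 16 and 13, and the chimeras 2 and 0, and the shares stood at -0.64, 0.24 and -0.60; outside the chimeras the samples share only a number (correlations 0.01 in V2 and -0.03 in V3 mice). The block changed no call on a share. The few V3 cells and the loss of all V2 calls with 1 WT sample limit what can be read from single genes.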
